A study of Mus musculus with 12 samples.

Results

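A set of 10 genes known from macrophages of solid tissues was followed in the blood of mice before and after a learning task: Gpnmb, Spp1, Mmp12, Ctsk, Marco, Mrc1, Trem2, Cd68, Lpl and Chil3. The genes were given as a list of symbols, which was chosen by the higher levels of Gpnmb, Mmp12 and Spp1 in post-training blood, and they make up 10 of the 27381 features on the arrays. The symbols of 9 were found in the platform's gene table, and Spp1 was found by its Entrez number through a RefSeq gene table. Water-deprived C57B16/J mice (the strain as the labels spell it) were fixed by the head above a ball floating on air. Trained mice learned to respond to a visual cue for water, while untrained mice had the same handling and received water at random times. Blood RNA was put together in pools of 7 mice, cleared of globin transcripts and measured on Affymetrix Mouse Gene 2.0 ST arrays, 1 pool per array, which gave 12 arrays.

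The 4 groups, of 3 arrays each, were trained mice after training, trained mice before training, untrained mice after training and untrained mice before training. In every group replicates 1 and 2 belonged to batch 1, and replicate 3 to batch 2, which the study describes as a repeat of the experiment. All mice had been operated on at 8 to 12 weeks of age and had 7 days of recovery. According to the study's methods, pre-training blood was drawn from the fronto-nasal sinus during that surgery and post-training blood was trunk blood taken at decapitation. Time, collection site, age, surgery and water restriction therefore cannot be told apart in a post against pre comparison, and fewer cells of a type cannot be told apart from less RNA per cell. The labels name 16 male and 18 female mice for the whole series, fewer than 3 separate pools of 7 in each training group would need. The study's methods count more mice, enough for separate pools. What the p-values measure is the spread among pools that group and batch leave over. That spread also holds any gap between the batches in the post minus pre difference.

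Macrophages are long-lived phagocytes of the tissues, some seeded before birth and others formed from blood monocytes that leave the circulation. In tissue they take up debris, lipid and mineral through scavenger receptors and digest it in lysosomes, and in stressed or lipid-laden tissue many of them switch on Gpnmb, Spp1, Trem2, Lpl and lysosomal proteases together. Mmp12, Marco and Chil3 are abundant in macrophages of the lung, and circulating monocytes usually carry little of most of these transcripts but much Cd68.

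Values are log2 intensities, 1 unit being a doubling. Because no detection call was used, the median of the feature means, 1.47, serves here as a mark of low signal. A fold change is uncertain in size where a group lies near or under it. The array medians lay between 1.44 and 1.52 and arrays correlated pairwise with Pearson r of 0.947 to 0.978. In trained post 1 and untrained post 1 the brightest feature, a ribosomal RNA gene (Rn18s-rs5), read 11.93 and 11.99, against 13.05 to 13.33 in the other 10 arrays. Those 2 arrays were therefore also left out together. The erythroid gene Alas2 read between 11.57 and 12.74, as blood would give. Between post and pre-training pools, markers of other blood cells moved too: in the comparison over both training groups 11 of 12 B cell genes were lower and 7 of 14 platelet genes higher (limma adjusted p under 0.05, which 3.21% of all features passed, 1.3% higher and 1.92% lower). What part these shifts have in the values of the macrophage genes was not tested.

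The DNA just upstream of the genes that stood out is shown so that their start regions can be compared. RefSeq (GRCm38.p6) gave the 250 bases before the annotated start for 9 of the 10 genes. These windows were searched on both strands for GAGGAAG, the letters bound by PU.1, a master regulator of macrophages, for TGANTCA, bound by AP-1, and for TCANGTG, bound by the lysosomal regulators of the MiT family. PU.1 letters occurred in 6 of the 9 windows, in Spp1, Mmp12, Ctsk, Marco, Mrc1 and Trem2, against 10.6% of all 32851 promoter windows. The full set was not limited to windows at the annotated gene start, as the 9 were, so its shares are over an unlike set. AP-1 letters occurred in 2, Trem2 and Cd68 (6.75% of all windows), and MiT letters in 0 (12.2% of all windows). No match overlapped a match of another motif. Capitals mark the PU.1 letters, in either orientation, and Gpnmb has none of the 3 motifs in its window.
Gpnmb (chr6:49036268-49036517, + strand): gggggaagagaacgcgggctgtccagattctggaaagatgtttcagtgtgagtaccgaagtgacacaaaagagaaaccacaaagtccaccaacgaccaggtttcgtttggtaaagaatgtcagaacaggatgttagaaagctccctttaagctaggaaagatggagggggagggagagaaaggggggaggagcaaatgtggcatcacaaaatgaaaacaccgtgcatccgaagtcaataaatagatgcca
Spp1 (chr5:104434861-104435110, + strand): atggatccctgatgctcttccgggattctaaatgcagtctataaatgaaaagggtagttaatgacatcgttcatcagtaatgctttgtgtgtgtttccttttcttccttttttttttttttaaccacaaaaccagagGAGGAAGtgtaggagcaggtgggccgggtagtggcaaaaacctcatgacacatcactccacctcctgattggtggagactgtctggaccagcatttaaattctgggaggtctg
Mmp12 (chr9:7344147-7344396, + strand): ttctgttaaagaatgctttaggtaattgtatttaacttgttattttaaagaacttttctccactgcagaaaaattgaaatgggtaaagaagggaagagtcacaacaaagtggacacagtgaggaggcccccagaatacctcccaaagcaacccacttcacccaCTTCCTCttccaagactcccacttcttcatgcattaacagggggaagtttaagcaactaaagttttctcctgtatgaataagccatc
Ctsk (chr3:95498960-95499209, + strand): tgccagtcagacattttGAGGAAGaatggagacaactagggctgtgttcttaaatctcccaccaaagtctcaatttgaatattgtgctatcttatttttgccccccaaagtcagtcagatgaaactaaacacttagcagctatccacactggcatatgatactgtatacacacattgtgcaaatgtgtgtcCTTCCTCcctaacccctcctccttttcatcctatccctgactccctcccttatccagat
In Ctsk the letters occurred both at -233 to -227 and at -59 to -53 relative to the start. A match of letters is a description and not evidence of binding.

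Gpnmb, Spp1 and Mmp12 were the genes whose higher post-training level led to the list, so the values that follow describe them and carry no test. Gpnmb encodes a glycoprotein of lysosomes and the cell surface. It read 4.66, 3.98 and 2.65 in post-training pools of trained mice, against 1.51, 1.56 and 2.47 in their pre-training pools. In untrained mice it read 4.87, 4.72 and 2.77 after training and 1.43, 1.39 and 2.33 before. Every post-training pool lay above every pre-training pool, yet the replicate from batch 2, the last in each set, was the lowest after training and the highest before. The group means were 3.76 ± 1.02 and 1.85 ± 0.54 in trained mice, post and pre, and 4.12 ± 1.17 and 1.72 ± 0.53 in untrained mice (SD, n = 3 each). Over both training groups the post minus pre difference was 2.16 on the log2 scale (SE 0.39), a 4.47-fold difference.

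Spp1 encodes osteopontin, a secreted matrix protein that binds integrins and CD44. It read 3.86, 2.61 and 2.32 in post-training pools of trained mice, against 1.44, 1.38 and 2.21 in their pre-training pools. In untrained mice the values were 3.66, 3.44 and 1.98 after training and 1.02, 1.42 and 1.84 before. Within each training group post and pre did not overlap, but the untrained post pool of batch 2 lay under the trained pre pool of that batch. The difference over both groups was 1.43 (SE 0.32), 2.69-fold.

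Mmp12 encodes the macrophage elastase, which cuts elastin. In trained mice its levels were 4.02, 2.40 and 1.76 after training and 1.03, 0.95 and 1.71 before. Untrained mice gave 3.54, 3.69 and 1.86 after training, against 0.80, 1.23 and 1.86 before. In batch 2 the post and pre pools of untrained mice were thus level to 2 decimals. Over both groups the difference was 1.62 (SE 0.39), 3.06-fold, and in both training groups the pre-training mean lay under the mark of low signal, as it also did for Spp1 in untrained mice and for Ctsk in both.

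**Figure D1:**
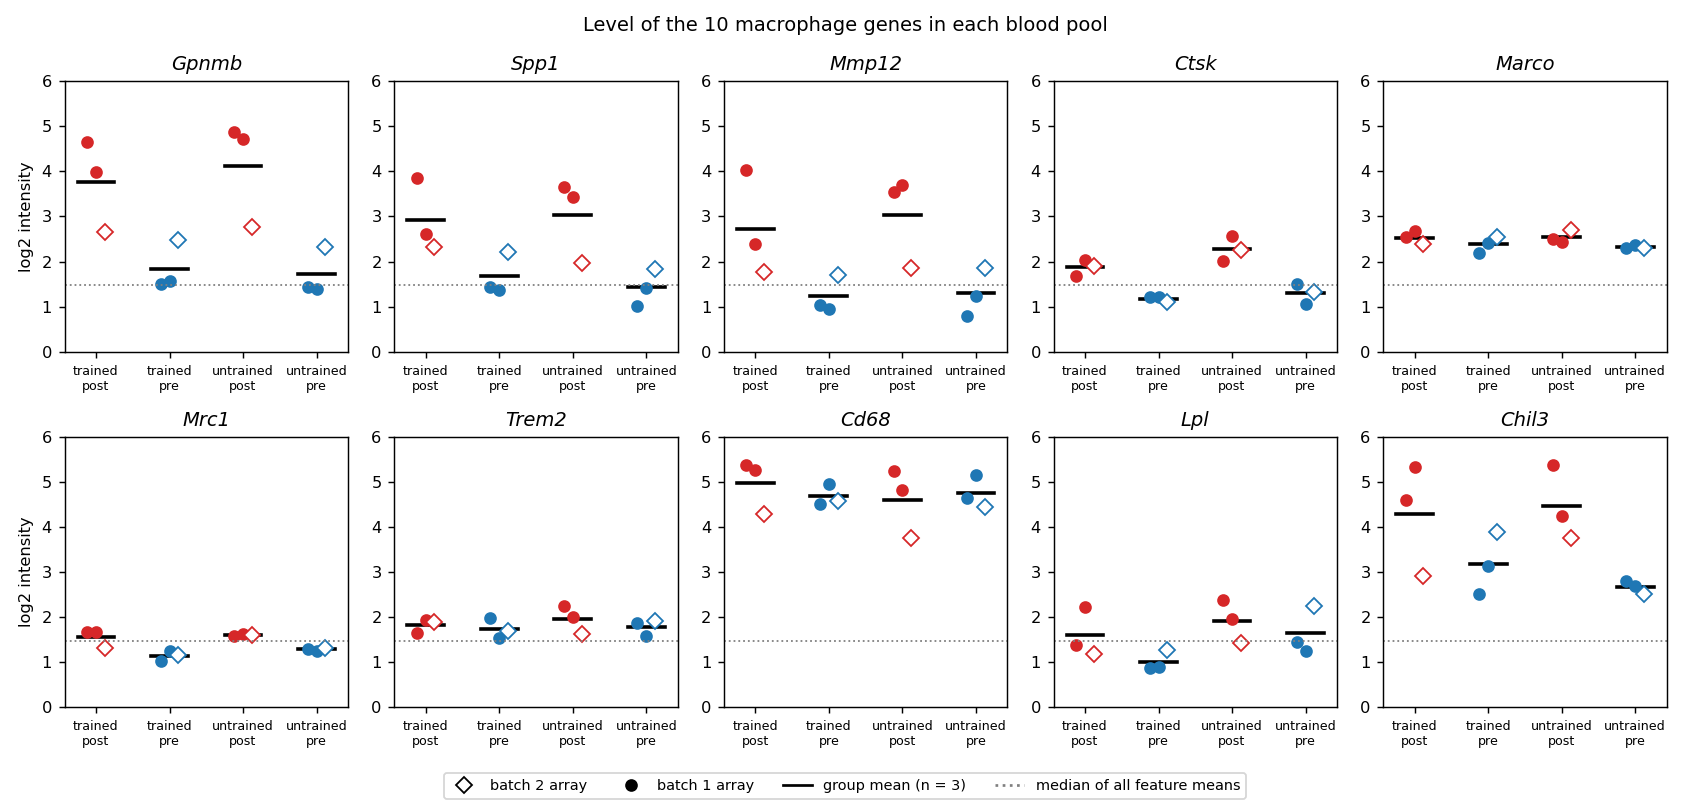
Log2 intensity (vertical axis) of each of the 10 genes in every pool, by group along the horizontal axis; filled circles are batch 1 arrays, open diamonds batch 2 arrays, red post-training and blue pre-training, bars group means (n = 3) and the dotted line the median of all feature means (1.47). The post-training circles of Gpnmb lie at 3.98 to 4.87 and its post-training diamonds at 2.65 and 2.77, while Ctsk has every post-training point at 1.69 or above and every pre-training point at 1.50 or below.

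Ctsk encodes cathepsin K, a collagen-cutting lysosomal protease best known from osteoclasts. Trained mice had it at 1.69, 2.03 and 1.91 after training and at 1.21, 1.21 and 1.10 before. In untrained mice it read 2.02, 2.56 and 2.26 after training and 1.50, 1.07 and 1.33 before. All 6 post-training pools lay above all 6 pre-training pools, in both batches. The difference over both groups was 0.84 (SE 0.12), 1.79-fold, smaller than that of Gpnmb but with less spread.

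Chil3 encodes a chitinase-like lectin secreted by lung macrophages and by neutrophil precursors. Its levels were 4.59, 5.33 and 2.92 in trained mice after training and 2.52, 3.14 and 3.89 before, so that the groups overlapped through the batch 2 pools. In untrained mice it read 5.37, 4.25 and 3.76 after training, against 2.80, 2.68 and 2.52 before, with no overlap. The difference over both groups was 1.45 (SE 0.36), 2.73-fold. Chil4, a near copy of Chil3 whose transcripts may cross-hybridise, differed by 0.20 (limma adjusted p = 0.491).

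The scavenger and lectin receptors differed less. Marco, a scavenger receptor for particles and bacteria, read 2.54, 2.67 and 2.39 in trained mice after training and 2.19, 2.41 and 2.55 before, and 2.51, 2.43 and 2.69 in untrained mice after training and 2.30, 2.37 and 2.30 before. Its trained groups overlapped and its untrained groups did not, with a difference over both of 0.19 (SE 0.09). Mrc1, the mannose receptor, read 1.68, 1.66 and 1.31 in trained mice after training and 1.03, 1.25 and 1.16 before. In untrained mice Mrc1 read 1.59, 1.63 and 1.61 after training and 1.29, 1.25 and 1.31 before. Post and pre did not overlap in either training group, and the difference over both was 0.37 (SE 0.09) at levels around the mark of low signal.

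Trem2, Cd68 and Lpl overlapped between post and pre in both training groups. Trem2, a lipid-sensing receptor, read 1.65, 1.93 and 1.89 in trained mice after training and 1.99, 1.54 and 1.69 before, and 2.24, 2.01 and 1.63 in untrained mice after training and 1.87, 1.59 and 1.91 before. Cd68, a lysosomal membrane protein of all mononuclear phagocytes, read 5.38, 5.27 and 4.28 in trained mice after training and 4.50, 4.95 and 4.58 before. Untrained mice had Cd68 at 5.23, 4.81 and 3.75 after training and at 4.63, 5.16 and 4.44 before. Both batch 2 post pools were the lowest of their groups for Cd68. Lpl, which frees fatty acids from lipoproteins, read 1.39, 2.23 and 1.18 in trained mice after training and 0.87, 0.89 and 1.28 before, and 2.37, 1.97 and 1.43 in untrained mice after training and 1.46, 1.24 and 2.24 before. The differences over both groups were 0.13 (SE 0.12) for Trem2, 0.08 (SE 0.17) for Cd68 and 0.43 (SE 0.23) for Lpl, with 4 of 12 Lpl values at or above the mark of low signal.

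Counted over the list, all 3 post pools lay above all 3 pre pools for 7 of 10 genes in untrained mice, where 10.3% of all features did so, and for 5 of 10 in trained mice, where 8.51% did. With both training groups together, 6 against 6, this held for Gpnmb and Ctsk, 2 of 10 (1.25% of all features). The median post minus pre difference over both groups was 0.64 for the 10 genes and 0.01 for all features. As the list was drawn up from this comparison, nothing is read from these shares. Without trained post 1 and untrained post 1 the differences over both groups were 1.78 for Gpnmb, 1.03 for Spp1, 1.18 for Mmp12, 0.97 for Ctsk, 1.21 for Chil3 and -0.08 for Cd68.

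The differences are also given by batch. In batch 2, with 1 post and 1 pre pool per training group, the post minus pre difference of Gpnmb was 0.18 in trained and 0.43 in untrained mice, against 2.78 and 3.39 in batch 1 (means of 2 and 2 pools). Spp1 gave 0.11 and 0.14 in batch 2 (trained and untrained) and 1.83 and 2.33 in batch 1. Mmp12 gave 0.05 and 0.00 in batch 2, and 2.21 and 2.61 in batch 1. Both ends moved: post-training levels were lower and pre-training levels higher in batch 2. Ctsk gave like values in both batches, 0.81 and 0.93 in batch 2 (trained and untrained) and 0.65 and 1.00 in batch 1. Chil3 differed by -0.98 in trained and 1.24 in untrained mice in batch 2, against 2.13 and 2.07 in batch 1. Over both training groups the median difference of the 10 genes was 0.12 in batch 2 with 7 positive, and 0.85 in batch 1 with 10 positive. Of all 27381 features 14836 were positive in batch 2 (median 0.027) and 14068 in batch 1 (median 0.005). Nothing is read from these counts either.

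The size of this gap was taken from a batch by time term in limma, added after the values were seen. The post minus pre difference in batch 2 minus that in batch 1 was -2.78 (SE 0.25) for Gpnmb, -2.39 (SE 0.47) for Mmp12, -1.96 (SE 0.41) for Spp1, -1.97 (SE 0.54) for Chil3 and 0.04 (SE 0.26) for Ctsk. Leaving out single arrays gave -2.96 to -2.60 for Gpnmb. The post and pre values that chose the genes enter this gap, and 4 of the 6 post arrays are of batch 1, so it is a description and carries no test. The sources used here do not say whether values had been adjusted for batch.

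**Figure D2:**
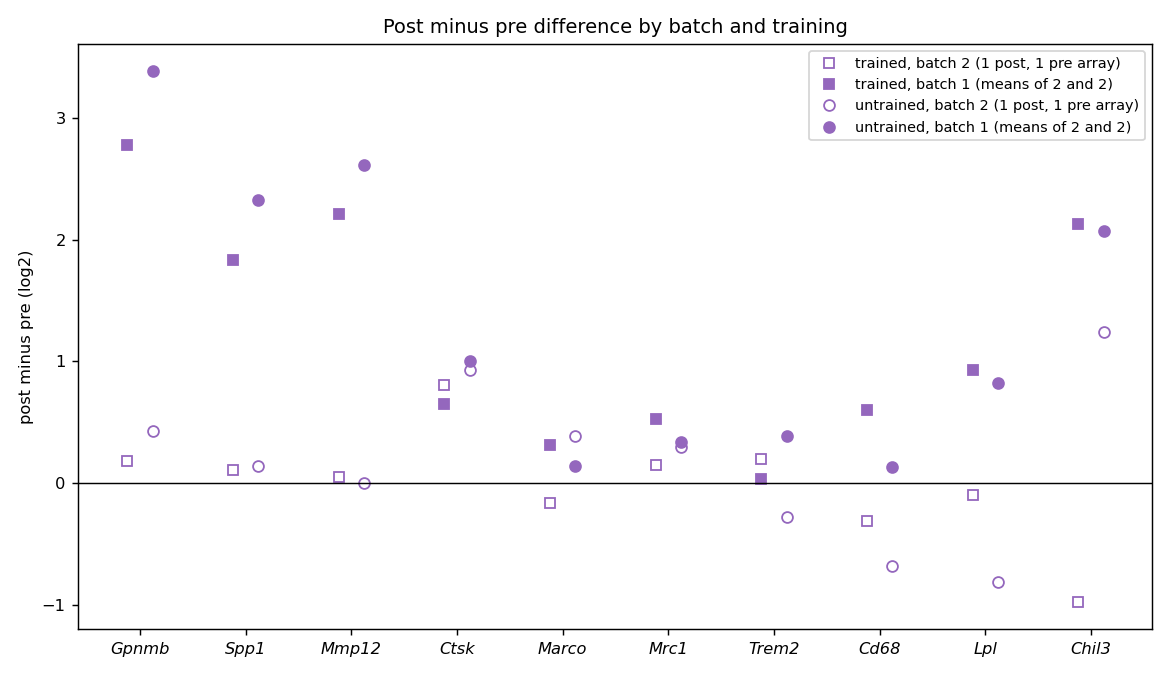
Post minus pre difference (log2, vertical axis) of each gene in trained mice (squares) and untrained mice (circles); open symbols are batch 2 (1 post and 1 pre array), filled symbols batch 1 (means of 2 and 2 arrays). Gpnmb, Spp1 and Mmp12 lie between 0.00 and 0.43 in batch 2 and between 1.83 and 3.39 in batch 1, and Ctsk lies between 0.65 and 1.00 in both.

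Trained and untrained mice could be compared by test, since this comparison did not choose the genes. After training 0 of 10 genes passed in limma (1 at an unadjusted p under 0.05), as did 0 of all 27381 features (0%), although 1756 features had an unadjusted p under 0.05. Ctsk came nearest among the 10, with 1.88 ± 0.17 in trained and 2.28 ± 0.27 in untrained mice (SD, n = 3 each), a difference of -0.40 (SE 0.16, 95% interval -0.76 to -0.04, limma adjusted p = 0.764). Gpnmb differed by -0.36 (SE 0.56, 95% interval -1.57 to 0.85, limma adjusted p = 0.946), an interval that spans changes of over 1 log2 unit downward. The width of this interval is not spread among like pools alone, since the gap between batches enters it. The SD left over for Gpnmb was 0.88 in this fit and 0.22 with the batch by time term. Differences were -0.09 for Spp1, -0.31 for Mmp12, -0.18 for Chil3 and 0.38 for Cd68, with limma adjusted p of 0.984, 0.955, 0.973 and 0.833 in that order. No gene had its 3 trained pools all above or all below its 3 untrained pools after training, where 4.84% of all features lay wholly above and 7.29% wholly below.

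Before training the trained and untrained mice had not yet been treated differently. Again 0 of 10 genes (0 unadjusted) and 0 of all features passed (1151 with an unadjusted limma p under 0.05), no gene's pools separated (4.88% of all features lay wholly above and 5.95% wholly below), and Lpl had the widest difference, -0.64 (SE 0.32, limma adjusted p = 0.999). The interaction of training and time, which asks whether the post minus pre difference depended on training, passed for 1 of all features (0.00365%) and for 0 of the 10 genes (0 unadjusted), all with limma adjusted p of 0.938 or more. It was -0.49 (SE 0.79, 95% interval -2.19 to 1.22) for Gpnmb, -0.70 for Chil3 and 0.44 for Cd68. The gap between batches enters the interval of Gpnmb here as well.

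**Figure D3:**
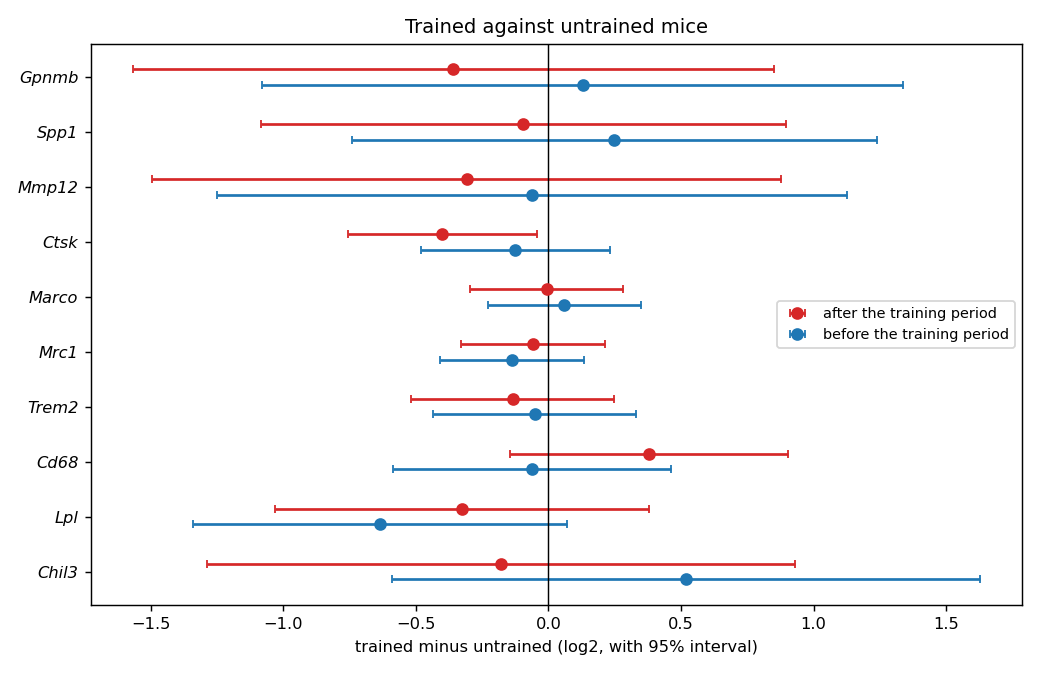
Trained minus untrained difference (log2, horizontal axis) of each gene after training (red) and before training (blue), with 95% intervals from limma on 12 arrays. After training the Ctsk interval runs from -0.76 to -0.04 before adjustment over all features, and those of the other 9 genes cross 0.

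Gpnmb, Spp1 and Mmp12, whose higher post-training level led to the list, correlated most closely among the genes. Over the 12 arrays, after each batch mean was removed, Pearson r was 0.97 between Gpnmb and Spp1, 0.97 between Gpnmb and Mmp12 and 0.98 between Spp1 and Mmp12. These arrays share the post and pre contrast by which Gpnmb, Spp1 and Mmp12 were picked. High values among them are therefore partly given by that choice. The values describe a common pattern and carry no p. Gpnmb correlated at 0.87 with Chil3, and Ctsk at 0.82 with Mrc1 but at -0.17 with Cd68. Of all features, those most like Gpnmb after Spp1 and Mmp12 were Hsd17b14 (0.93), the airway secretory gene Scgb1a1 (0.93) and Paxip1 (0.92). The features most like Spp1 after Mmp12 and Gpnmb were Hsd17b14 (0.92), Cd209g (0.92) and the complement gene C1qb (0.90). Those most like Mmp12 after Spp1 and Gpnmb were the protease gene Ctsl (0.93), Hsd17b14 (0.91) and 4930429B21Rik (0.91). The mean levels of Cd209g (0.87) and 4930429B21Rik (1.31) lay under the mark of low signal.

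Other genes that define tissue macrophages gave no call. Of 22 genes of resident tissue macrophages 0 passed in the post against pre comparison over both training groups (limma; 3.21% of all features passed), with 4 at an unadjusted p under 0.05. The difference was positive for 15 of the 22, where it was for 53.6% of all features, and their median was 0.10, against 0.01 for all features. Adgre1, which encodes a classic macrophage surface antigen, differed by -0.28 (adjusted p = 0.349), Mertk by 0.11, Csf1r by -0.11, C1qa by 0.31 (adjusted p = 0.127) and C1qb by 0.83 (adjusted p = 0.106), all by limma. The summed level of the list on the log2 scale was 6.40 to 6.74 in trained post, 6.37 to 6.65 in trained pre, 6.42 to 6.75 in untrained post and 6.48 to 6.52 in untrained pre pools. The name tissue macrophage genes therefore rests on what the 10 genes are known for, and not on this wider marker list.

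Nearer lists gave a few genes each. Of 18 other genes of lipid-associated macrophages 2 were higher after training, the lysosomal proteases Ctsd (0.57, limma adjusted p = 0.026) and Ctsl (0.75, limma adjusted p = 0.0441). Other genes of that list were Lgals3 at -0.23, Apoe at -0.05, Cd9 at 0.39 (adjusted p = 0.0794) and Cd63 at 0.38. Among 15 cathepsins and cystatins, the relatives of Ctsk and their inhibitors, Ctsd and Ctsl were higher and Ctsh was lower (-0.86, limma adjusted p = 0.00486). Without trained post 1 and untrained post 1, 1 gene of each of these lists passed. The lipid-associated list had 0 genes passing without untrained pre 2, untrained post 1, untrained post 3, trained pre 1 or trained post 2, and the cathepsin list had 1 when any 1 of the first 4 of these arrays was left out. Of 14 genes of alternative activation, the program in which Mrc1 and Chil3 are often read, 0 passed in limma (4 at an unadjusted p under 0.05), as did 0 of 13 other scavenger and lectin receptors (1 unadjusted).

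Of 12 measured alveolar macrophage genes 1 was higher, the proton pump subunit Atp6v0d2 (1.07, limma adjusted p = 0.0479), which is also known from osteoclasts. It read 2.01, 2.86 and 1.46 in trained mice after training and 0.93, 0.55 and 1.36 before, and 2.55, 2.18 and 1.22 in untrained mice after training and 0.90, 0.73 and 1.38 before. By batch, the post minus pre difference was -0.03 in batch 2 and 1.62 in batch 1. Plet1 differed by 1.28 (limma adjusted p = 0.0563), Pparg, the regulator of alveolar macrophages, by 0.11, and Siglecf, their surface lectin, by -0.17. The call of Atp6v0d2 was lost without trained post 1 and untrained post 1, and in 7 of the 12 fits that left out 1 array 0 genes of the list passed (without untrained pre 1 or 2, untrained post 1 or 2, trained pre 1 or 2, or trained post 2).

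The partners of single members were examined as well. Of 8 osteopontin receptors 4 were higher after training over both groups, Itgb5 (1.07, adjusted p = 0.00179), Itgb1 (0.85, adjusted p = 0.011), Itgb3 (0.69, adjusted p = 0.0219) and Cd44 (0.60, adjusted p = 0.0119) by limma. Itgb3 is also a defining integrin of platelets, whose genes were higher too. The difference was positive for 6 of the 8 and negative for 2. Itgav did not pass, with means of 2.85 after and 2.78 before training in trained mice, and 2.91 and 2.83 in untrained mice. In batch 1 alone 1 of the 8 passed. Of 6 signalling partners of Trem2, Tyrobp, its adaptor, was lower (-0.52, limma adjusted p = 0.0176). It did not pass without untrained post 1 or untrained pre 2, without the batch term or after quantile normalization. Nor did it pass without trained post 1 and untrained post 1 together. None of 19 other matrix metalloproteinases passed (5 at an unadjusted p under 0.05). The difference over both groups was positive for 11 of the 19 and negative for 8. The negative ones included Mmp9 (-0.74, limma adjusted p = 0.0859) and Mmp8 (-0.44), which neutrophils carry. Mmp19 had means of 5.79 after and 5.11 before training in trained mice, and 5.66 and 5.13 in untrained mice. No gene passed among 6 metalloproteinase inhibitors (1 unadjusted) or 9 cofactors and inhibitors of lipoprotein lipase (2 unadjusted). The same held for 10 macrophage growth factors and receptors (3 unadjusted) and 4 MiT family factors (0 unadjusted).

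Osteoclasts, which share Ctsk, Spp1 and Mmp12 with macrophages, gave 2 of 14 genes higher, Atp6v0d2 and Itgb3, while Acp5, their acid phosphatase, differed by -0.55 (limma adjusted p = 0.0546). Without untrained pre 2, untrained post 1 or trained post 2, 0 of the 14 passed. None of 11 genes of bone-forming cells passed in limma (2 at an unadjusted p under 0.05). Of 16 blood monocyte genes 1 was higher, F13a1 (0.96, limma adjusted p = 0.013), also abundant in platelets, and 2 were lower, Cx3cr1 (-0.59, limma adjusted p = 0.0323) and Ms4a4c (-1.07, limma adjusted p = 0.0334). In batch 1 alone 0 of the 16 passed. Only 1 passed without trained post 1 and untrained post 1 together, and likewise without untrained pre 2 or 3, untrained post 1 or 3, trained pre 3, or trained post 2 or 3 alone. The monocyte list had a median of -0.23, and its summed log2 level was 8.00 to 8.50 in trained post, 7.90 to 8.27 in trained pre, 7.76 to 8.23 in untrained post and 7.96 to 8.16 in untrained pre pools. No gene of these lists passed for trained against untrained mice or for the interaction.

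**Figure D4:**
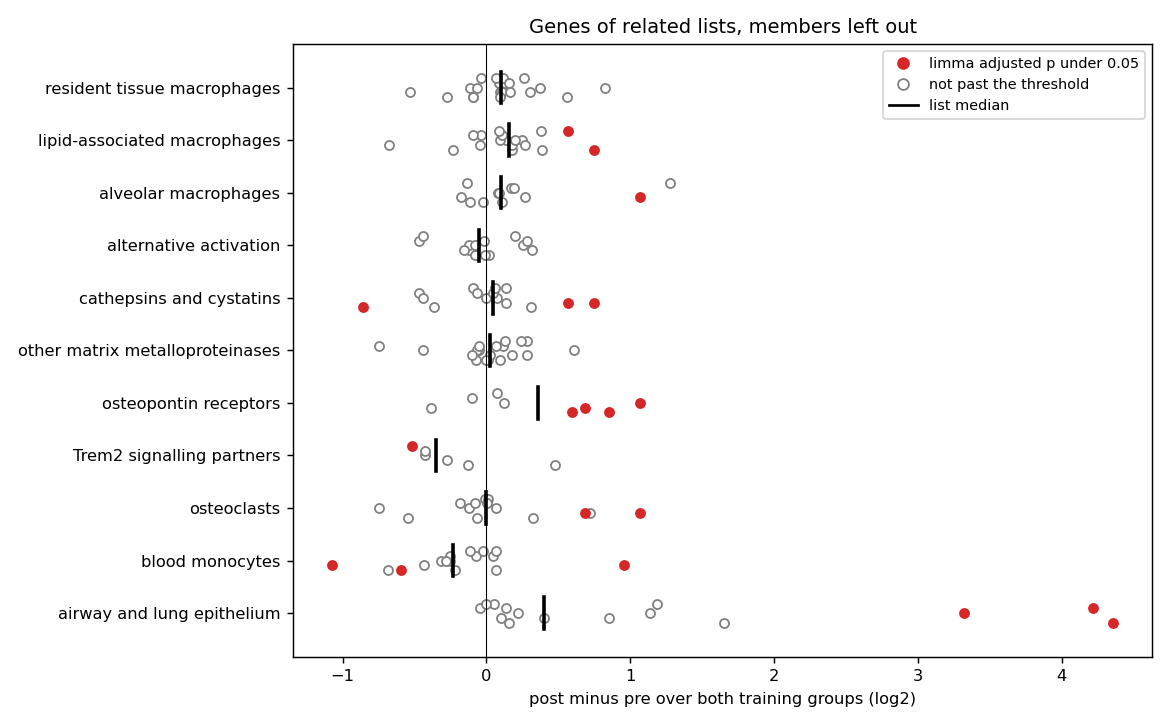
Post minus pre difference over both training groups (log2, horizontal axis) of the genes of 11 related lists with the 10 genes left out; red points passed limma's adjusted threshold, open points did not, and black bars are list medians. The resident macrophage genes centre on 0.10 with none passing, and the airway genes Bpifa1, Scgb1a1 and Cyp2f2 lie furthest to the right, at 4.36, 4.22 and 3.32.

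Markers of another tissue were examined in the same comparison. Of 15 genes of airway and lung epithelium 13 had a positive difference over both groups and 3 passed, Bpifa1 (4.36, SE 0.64, limma adjusted p = 0.00466), Scgb1a1 (4.22, SE 0.86, limma adjusted p = 0.0197) and Cyp2f2 (3.32, SE 0.52, limma adjusted p = 0.00609), all known from secretory cells of the nose or bronchi. Scgb1a1, the club cell protein, read 4.65, 7.76 and 2.53 in post-training pools of trained mice, against 0.41, 0.60 and 2.18 in their pre-training pools. In untrained mice it read 7.57, 5.85 and 3.11 after training and 0.26, 0.35 and 2.36 before. Bpifa1, an antimicrobial protein of the airway lining, read 4.12, 7.60 and 3.47 in trained mice after training and 0.67, 0.51 and 1.36 before, and 7.15, 5.11 and 4.50 in untrained mice after training and 0.65, 0.63 and 1.97 before. Every post pool lay above every pre pool for both genes. The summed log2 level of the list was 6.27 to 9.20 in trained post, 5.08 to 5.58 in trained pre, 6.32 to 9.02 in untrained post and 5.22 to 5.59 in untrained pre pools.

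Their post minus pre differences in batch 2 and batch 1 were 0.55 and 6.05 for Scgb1a1, 2.32 and 5.38 for Bpifa1 and 1.89 and 4.04 for Cyp2f2. Within the batch 1 post pools the order was shared only in part. Scgb1a1, Bpifa1, Cyp2f2 and Chil3 were highest in trained post 2 and untrained post 1. Gpnmb, Spp1 and Mmp12 had their lowest batch 1 post values, 3.98, 2.61 and 2.40, in trained post 2. In untrained post 1 Gpnmb and Spp1 were also higher than in untrained post 2 (4.87 against 4.72, and 3.66 against 3.44). Mmp12 was lower there (3.54 against 3.69). In both training groups the batch 2 post pool was the lowest for Scgb1a1, Bpifa1, Chil3, Gpnmb, Spp1 and Mmp12. Without trained post 1 and untrained post 1, 2 of the 15 airway genes passed. Their part in the values of the macrophage genes was not tested.

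**Figure D5:**
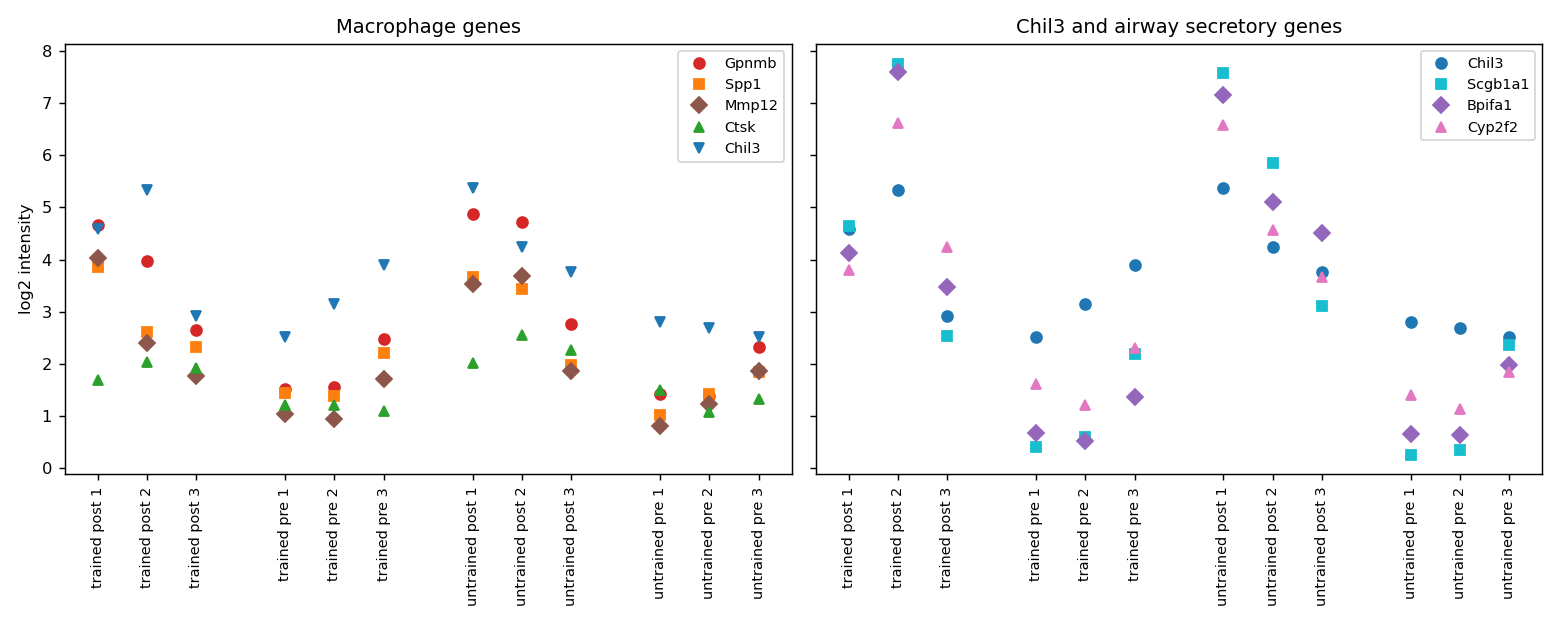
Log2 intensity (vertical axis) in each of the 12 arrays (horizontal axis) of Gpnmb, Spp1, Mmp12, Ctsk and Chil3 on the left, and of Chil3 with the airway genes Scgb1a1, Bpifa1 and Cyp2f2 on the right. In trained post 2 Scgb1a1 reached 7.76 while Mmp12 stood at 2.40, and in trained post 1 Scgb1a1 stood at 4.65 while Mmp12 reached 4.02. In untrained mice Gpnmb, Spp1 and Scgb1a1 stood higher in post 1 than in post 2, and Mmp12 stood lower.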

How the data were processed

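Per the submitters' processing notes, the authors made the deposited log2 intensities by Robust Multiarray Average, which corrects background, quantile normalizes the arrays and summarises probes per Entrez gene, using affy 1.62.0 and R 3.6.0. The sources used here name no genome build. No filter was applied and no array was dropped or averaged, and the small number of arrays limits the precision. limma 3.58.1 (lmFit, eBayes; R 4.3.3) modelled all 27381 features on 12 arrays by group and batch (7 residual degrees of freedom). Tests were two-sided, adjusted by Benjamini-Hochberg over the whole table, and passed under 0.05. The steps were tested on simulated data. The 10 genes, 28 gene lists, contrasts and alternatives were all chosen with earlier results of these data known. Named were the 10 genes, up to 4 genes per list past the threshold and up to 3 defining ones, the features most like Gpnmb, Spp1 and Mmp12, and close relatives; other list genes were named after their values were seen. Alternatives were no batch term, a replicate block, fitting only the arrays compared, batch 1 alone and batch 2 alone (differences only, with no test). Further ones were a filter at the median level, quantile normalization, centring of arrays, limma's trend, array weights and each array left out in turn.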

Additional observations from a re-analysis of the deposited data

How the results depend on the processing

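Counts of all features passing depended on the setting. For post against pre over both groups (880), batch 1 alone gave 123 and leaving out trained post 1 and untrained post 1 together (chosen after seeing the data) 553, with 484 to 886 when single arrays were left out. In untrained mice (185), batch 1 alone gave 9, the filter at the median 335, limma's trend 93 and the 2 arrays left out 12, with 0 to 301 for single arrays. In trained mice (77), no batch term gave 124, the compared arrays only 22, batch 1 alone 8, the filter at the median 141, centring 36 and the trend 22, with 1 to 199 for single arrays. With quantile normalization 475 of 924 features passing over both groups were higher, against 355 of 880 as reported; in untrained mice these were 140 of 232 and 45 of 185, and in trained mice 64 of 100 and 39 of 77. Centring gave 35 of 192 in untrained mice and 20 of 36 in trained mice. Trained against untrained mice stayed at 0, with 0 to 1 for single arrays both after and before training. The interaction (1) gave 0 in batch 1 alone, with the replicate block and with the 2 arrays left out, and 0 to 1 for single arrays.

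Pools that share a replicate number were not treated as pairs in the reported fits. After group means were removed, 2 of the 18 array pairs that share a number had r over 0.1 (-0.19 to 0.135). The study describes trained and control mice as same-sex littermate pairs, bled before and after training. These correlations cannot show whether same-numbered pools held the same mice or littermates. The replicate block gave 971 over both groups, 226 in untrained and 62 in trained mice.

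Of the 30 tested values of the 10 genes, 23 turned sign under some alternative and 0 passed under any that gave a test. Batch 2 alone, with 1 array per group, gave differences only. The interaction of Mrc1 turned in that setting alone, to -0.15. With the 2 arrays left out, trained minus untrained after training became 0.092 for Trem2, 0.004 for Lpl and 0.12 for Chil3, and the interaction of Trem2 0.14. In batch 1 alone it became 0.14 for Marco, 0.061 for Mrc1 and 0.15 for Chil3 after training, -0.032 for Marco and 0.033 for Trem2 before, and the interactions were 0.17 for Marco and 0.063 for Chil3. Marco after training was 0.035 with centring and 0.011 with array weights, and Mmp12 before training 0.011 with array weights. None of these passed. For trained minus untrained after training, single arrays left out gave -0.64 to 0.48 for Chil3, -1.06 to 0.18 for Gpnmb, -0.090 to 0.12 for Marco, -0.92 to 0.15 for Mmp12, -0.12 to 0.069 for Mrc1, -0.67 to 0.20 for Spp1 and -0.32 to 0.002 for Trem2. Before training they gave -0.32 to 0.16 for Cd68, -0.20 to 0.97 for Chil3, -0.49 to 0.74 for Gpnmb, -0.025 to 0.15 for Marco, -0.56 to 0.50 for Mmp12, -0.23 to 0.64 for Spp1 and -0.17 to 0.067 for Trem2. For the interaction they gave -1.16 to 0.025 for Chil3, -1.19 to 0.13 for Gpnmb, -0.094 to 0.58 for Lpl, -0.16 to 0.055 for Marco, -0.86 to 0.26 for Mmp12, -0.92 to 0.13 for Spp1 and -0.27 to 0.054 for Trem2.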

Other observations

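Other lists of cell types were counted in the same way over both training groups. Among 14 neutrophil genes 3 were lower after training, as were 1 of 12 T cell and 1 of 9 NK cell genes, and the NK cell list gave 0 in 10 of the 12 fits that left out 1 array and 0 without trained post 1 and untrained post 1 together. Of 9 microglial genes P2ry12 was higher (0.54), a receptor that platelets share, but 0 of the 9 passed in 9 of the 12 fits that left out 1 array. None of 9 adipocyte, 12 skeletal muscle, 8 dendritic cell or 10 erythroid genes passed in limma, with 0, 0, 1 and 4 of them at an unadjusted p under 0.05.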
